A study of Homo sapiens with 6 samples.

Results

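HLA class I molecules carry peptides from inside the cell to its surface, where CD8 T cells and natural killer cells read them. The 9 genes described here encode heavy chains (HLA-B, HLA-C, HLA-E, HLA-F), the light chain (B2M), the peptide transporter (TAP1, TAP2), the loading chaperone tapasin (TAPBP) and NLRC5, a transcriptional activator of class I genes. They were chosen by gene name from the 33900 genes of the expression table. Each name matched 1 row, and all 9 were among the 14178 genes tested, whose FPKM averaged 0.5 or more. FPKM is the fragment count scaled to transcript length and sequencing depth, so it allows levels to be compared between genes.

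The study treated LX-2 cells, a wild-type human hepatic stellate cell line, with recombinant human Sema3C (rhSema3C) at 300 ng/ml or with PBS for 48 h. RNA was sequenced from 3 samples of each group, which the labels call biological replicates of a single cell line. Nothing stated whether they were separate cultures, so the p-values measure the spread between these samples, which may be technical. Total counts lay between 68267808 and 89245585 per library, and replicates differed by more than counting noise. CPM is the count relative to the library total with TMM scaling, which aligns the libraries on the bulk of their genes. Of the stellate cell markers, VIM, COL1A1 and SPARC were abundant, while COL1A2, a collagen chain typical of these cells, was at a mean of 0.130 FPKM with PBS. Leukocyte PTPRC (CD45) was at 0.00414 FPKM with PBS and 0.00475 FPKM with rhSema3C, and hepatocyte ALB at 0.0103 and 0 FPKM. Of 9 stellate markers tested, 7 were lower with rhSema3C and 1 higher at an edgeR adjusted p below 0.05, beside 30.6% and 31.7% of all genes tested. The summed level of all 10 listed was 7896 to 8133 CPM with PBS and 5808 to 6189 CPM with rhSema3C. The summed level of 7 leukocyte and macrophage markers was 215 to 237 CPM with PBS and 143 to 155 CPM with rhSema3C. Nearly all of it was CD68, a lysosomal protein gene (215 and 144 CPM), while CD14 had 8.27 and 4.73 CPM and PTPRC, CD163, CD3E, LYZ and NKG7 were each below 0.6 CPM on average. The 4 hepatocyte markers summed to 13.9 to 16.4 CPM with PBS and 17.2 to 20.5 CPM with rhSema3C. SERPINA1 carried this sum (14.6 and 18.9 CPM, edgeR adjusted p = 0.00657), with ALB, APOA1 and HNF4A near 0. The 4 endothelial markers summed to 5.93 to 7.68 CPM with PBS and 10.3 to 13.7 CPM with rhSema3C. KDR, the only marker of the 4 that was tested, had 0.723 FPKM with PBS and 0.720 FPKM with rhSema3C. It was not called (log2 fold change -0.10, edgeR adjusted p = 0.625). VWF had 0.101 FPKM with PBS and 0.659 FPKM with rhSema3C, and PECAM1 and CDH5 were near 0. The 4 epithelial markers overlapped between the groups. The part of these shifts in the class I results was not tested. All samples came from a single cell line, and bulk values cannot tell a change in some cells from a change in all.

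A class I molecule consists of a polymorphic heavy chain, β2-microglobulin and a short peptide. Proteasomes cut proteins into peptides, the TAP1/TAP2 heterodimer pumps them into the endoplasmic reticulum, and tapasin holds the empty molecule beside the transporter until a peptide fits. HLA-B and HLA-C present to T cells, HLA-E displays leader peptides to natural killer receptors, and HLA-F can bind such receptors as well. Interferons induce most of these genes through elements such as the ISRE, NF-κB acts at κB elements, and NLRC5 acts with the RFX, CREB and NF-Y factors at a conserved promoter module. Activated stellate cells are known to be able to present antigen.

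The start regions of the genes are shown first, because class I genes are known for elements in this window. RefSeq promoters on GRCh38.p14 (250 bases before to 50 after the transcription start) were matched by symbol for 7 of the 9 genes. HLA-E and NLRC5 had no entry. For B2M, which rose, HLA-B, which did not pass the test, and TAP1 and TAP2, which fell, the 200 bases before the RefSeq start are given 5′ to 3′ on the gene's strand. Capitals mark the motif matches described next that lie within the printed bases, on either strand. The CCAAT match of TAP1, at -249 to -245 from its start, lies outside them.
B2M, chr15:44711317-44711516, plus strand: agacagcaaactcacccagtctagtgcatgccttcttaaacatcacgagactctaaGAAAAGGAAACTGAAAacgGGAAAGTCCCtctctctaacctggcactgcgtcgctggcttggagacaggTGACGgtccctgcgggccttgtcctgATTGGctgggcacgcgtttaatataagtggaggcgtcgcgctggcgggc
HLA-B, chr6:31357180-31357379, minus strand: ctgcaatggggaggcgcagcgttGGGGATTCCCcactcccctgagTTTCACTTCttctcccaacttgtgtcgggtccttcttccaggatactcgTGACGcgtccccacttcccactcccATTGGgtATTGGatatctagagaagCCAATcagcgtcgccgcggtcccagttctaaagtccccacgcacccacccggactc
TAP1, chr6:32853705-32853904, minus strand: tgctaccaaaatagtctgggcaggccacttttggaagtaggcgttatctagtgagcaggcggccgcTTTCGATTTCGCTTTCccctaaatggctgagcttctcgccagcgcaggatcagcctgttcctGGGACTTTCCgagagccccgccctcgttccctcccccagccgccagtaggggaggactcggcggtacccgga
TAP2, chr6:32838740-32838939, minus strand: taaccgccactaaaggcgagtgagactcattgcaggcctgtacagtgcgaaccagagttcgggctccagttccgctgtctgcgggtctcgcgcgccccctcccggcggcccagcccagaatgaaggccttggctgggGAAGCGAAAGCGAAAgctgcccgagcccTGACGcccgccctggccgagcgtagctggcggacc

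The following letter patterns were searched on both strands over the 300 bases. The ISRE core (GAAA, any 2 bases, GAAA) was found in 5 of the 7 promoters (HLA-F, B2M, TAP1, TAP2 and TAPBP), and in 3.57% of all 35116 RefSeq promoters of this length. The shorter ISRE variant GAANNGAAA was found in 3 (HLA-B, HLA-C and TAP2, where it overlaps the core), against 7.66% of all promoters. Core or variant was present in each of the 7, and in 10.6% of all. The patterns were chosen after these 7 promoters had been read, so nothing follows from the difference between the members' counts and the shares of all promoters. The κB pattern (GGG, any 2 bases, TT, any base, CC) was found in 4 (HLA-B, B2M, TAP1 and TAPBP), against 5.68%. CCAAT, the NF-Y core, was found in 5 (34.61% of all), and the CRE core TGACG in 4 (24.55% of all). B2M had its κB match at -125 to -116 from the start, shortly downstream of a pair of overlapping ISRE cores. TAP1 and TAPBP, which were lower with rhSema3C, also had overlapping ISRE cores and a κB match, at -72 to -63 and -56 to -47. TAP2 had no κB match. A match is a run of letters and says nothing on binding in these cells.

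With PBS, the order of the levels per length was HLA-B, HLA-C, B2M, HLA-E, TAPBP, TAP1, TAP2, HLA-F and NLRC5. HLA-B was at 465.3 ± 21.7 FPKM and NLRC5 at 5.03 ± 0.318 FPKM (SD, n = 3). The ranges of HLA-C (241.4 to 262.2 FPKM) and B2M (234.8 to 246.9 FPKM) overlapped, and every other neighbouring pair was separated. With rhSema3C, B2M moved ahead of HLA-C to 405.9 to 417.9 FPKM, where HLA-C was at 259.7 to 267.4 FPKM. No neighbouring ranges overlapped in that group, and the order was otherwise the same. Among all genes tested, B2M ranked 118 by mean FPKM with PBS and 57 with rhSema3C. HLA-B ranked 54 and 42, and NLRC5 ranked 6761 and 8435.

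With rhSema3C, the light chain rose, 5 genes fell and 3 heavy chain genes did not pass the test. The fall of TAP2 and NLRC5 and the rise of B2M were the 3 largest log2 fold changes, and none of the 9 genes passed a fold change of 2. The quasi-likelihood test of edgeR, at 0.05 after adjustment, called 6 of 9 genes, beside 62.3% of all genes tested. In the same test, 1 of 9 was higher (31.7% of all genes) and 5 of 9 were lower (30.6%), so a call by itself was common in this comparison. Their log2 fold changes had a median of -0.16, beside 0.02 over all genes tested. The groups did not overlap for 6 of the 9 genes, against 67.8% of all, with 1 higher (34.6% of all) and 5 lower (33.3%). The study's cutoffs of more than 2-fold at unadjusted p below 0.05 were also applied to the edgeR test, in place of the study's Cufflinks analysis. With them, 5.54% of all genes tested here were called.

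These small differences depended on how the libraries were scaled. The median log2 fold change of all genes moved from 0.02 with TMM to 0.13 with library size alone and to 0.23 with values rescaled to TPM, and the share of rises among called genes moved from 50.9% to 62.3% and 74.1%. The TPM values were fitted with limma as log2(TPM + 1). That setting thus also differed from the edgeR fits in its test and added constant. With TPM, 4 of the 9 genes were called higher and 2 lower. The rise of B2M and the falls of TAP2 and NLRC5 were called under each of these scalings and with median-of-ratios factors. HLA-B and HLA-C changed sign with library size alone (0.09 for both) and with TPM, and HLA-E and TAP1 with TPM. With TPM they lay at 0.21, 0.21, 0.01 and 0.07, each below the median of all genes in that fit.

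**Figure D1:**
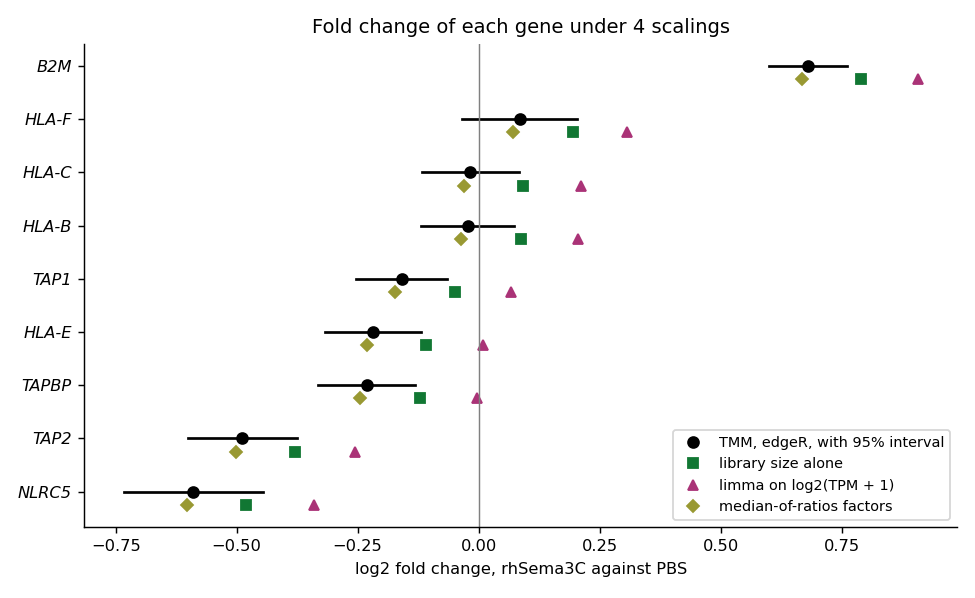
Log2 fold change (rhSema3C against PBS) of the 9 genes with TMM scaling (black, with the 95% interval) and under 3 other scalings (coloured symbols). TPM values were fitted with limma as log2(TPM + 1), the others with edgeR. B2M lies to the right and TAP2 and NLRC5 to the left of 0 under all 4, while HLA-B and HLA-C cross 0 with library size alone and TPM, and HLA-E and TAP1 with TPM.

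B2M (ENSG00000166710) encodes β2-microglobulin, the invariant light chain of every class I molecule, on chromosome 15 of GRCh38 from 44711487 to 44718877. PBS replicates 1 to 3 had 1522, 1532 and 1593 CPM of B2M. The corresponding rhSema3C values were 2483, 2523 and 2443 CPM. Each rhSema3C sample was above each PBS sample, and the gap was far wider than the spread in either group. The means were 1549 ± 38.6 and 2483 ± 40.2 CPM (SD, n = 3 per group). This gave a log2 fold change of 0.68 (SE 0.04, 95% interval 0.60 to 0.76, edgeR adjusted p = 6.63e-08). By the size of the change it ranked 2297 of 14178. Over the 16 alternative settings the log2 fold change lay between 0.67 and 0.91 and was called in each. No other gene of the table overlaps B2M.

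Among the classical heavy chain genes, HLA-B (ENSG00000234745, chromosome 6, 31269491 to 31357179) had 1479.6, 1604 and 1457 CPM with PBS. The rhSema3C samples had 1469.9, 1482 and 1518 CPM. The groups overlapped, and the log2 fold change was -0.02 (95% interval -0.12 to 0.07, edgeR adjusted p = 0.671).
HLA-C (ENSG00000204525, chromosome 6, 31268749 to 31272105) had 644, 705 and 642 CPM with PBS and 668, 647 and 654 CPM with rhSema3C. Its log2 fold change was -0.02 as well (95% interval -0.12 to 0.08, edgeR adjusted p = 0.753). For both genes PBS replicate 2 was the highest of the 6 samples. Without it the log2 fold change was 0.02 for HLA-B and 0.03 for HLA-C, and neither was called. The HLA-B model in the table overlaps that of HLA-C by 2615 bases on the same strand, and both are polymorphic close paralogs, so the division of reads between them is uncertain.

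The nonclassical heavy chain gene HLA-E (ENSG00000204592, chromosome 6, 30489509 to 30494194) had 621, 637 and 589 CPM with PBS and 550.2, 519 and 518 CPM with rhSema3C. All rhSema3C samples were below all PBS samples. The log2 fold change was -0.22 (SE 0.04, edgeR adjusted p = 0.00132), and 0.01 with TPM, where the fall was not called. HLA-F (ENSG00000204642, chromosome 6, 29722775 to 29729351) had 53.1, 50.5 and 48.9 CPM with PBS and 52.4, 54.0 and 55.3 CPM with rhSema3C. The groups overlapped, with a log2 fold change of 0.08 (95% interval -0.03 to 0.20, edgeR adjusted p = 0.193). HLA-F was called higher in 5 of 16 alternatives, among them library size alone (0.19) and TPM (0.31). It overlaps the antisense gene HLA-F-AS1, which had a mean of 389.7 counts against 4222.5 for HLA-F, and strand handling in the counting was not stated.

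TAP1 and TAP2 encode the subunits of the peptide transporter and lie beside the immunoproteasome genes. TAP1 (ENSG00000168394, chromosome 6, 32845209 to 32853978) had 150.3, 146 and 141 CPM with PBS and 128, 129 and 135 CPM with rhSema3C. The groups did not overlap, with a narrow gap between PBS replicate 3 and rhSema3C replicate 3. The log2 fold change was -0.16 (SE 0.04, edgeR adjusted p = 0.00699). TAP1 was called in 11 of 16 alternatives, and the call was lost with library size alone (-0.05, edgeR adjusted p = 0.327), with TPM (0.07), with a higher FPKM filter and in both limma fits of FPKM. TAP2 (ENSG00000204267, chromosome 6, 32821833 to 32838770) had 123, 139 and 131 CPM with PBS and 96.1, 90.7 and 93.3 CPM with rhSema3C. The highest rhSema3C sample was well below the lowest PBS sample. Its log2 fold change was -0.49 (SE 0.05, 95% interval -0.60 to -0.38, edgeR adjusted p = 9.46e-06), and lay between -0.53 and -0.26 over 16 alternatives, each of them called. A gene model without an official symbol spans all of TAP2 on the same strand, with a mean of 54.3 counts against 8861 for TAP2. The PSMB9 model in the table covers the whole of TAP1 on the other strand, with a mean of 4828 counts against 11049.8 for TAP1, so reads of the pair cannot be told apart unless strand was used.

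Tapasin, encoded by TAPBP (ENSG00000231925, chromosome 6, 33299694 to 33314251), bridges the transporter and the empty class I molecule. TAPBP had 202, 214 and 199 CPM with PBS and 171, 170.0 and 183 CPM with rhSema3C, without overlap. The log2 fold change was -0.23 (SE 0.05, edgeR adjusted p = 0.00104), and it shrank to -0.00 with TPM (adjusted p = 0.946 from limma). The regulator NLRC5 (ENSG00000140853, chromosome 16, 56989485 to 57083524) had 62.1, 71.1 and 66.8 CPM with PBS and 47.1, 41.9 and 43.9 CPM with rhSema3C. The rhSema3C samples lay clearly below the PBS samples. Its log2 fold change of -0.59 (SE 0.07, 95% interval -0.73 to -0.45, edgeR adjusted p = 1.37e-05) was the largest fall of the 9 genes. It was called in each of the 15 alternatives in which NLRC5 was tested, with values between -0.64 and -0.34. The lowest count of any of the 9 genes in any library was 3214, so counting error was small beside the differences between replicates. For a single gene the two-sided exact permutation test of 3 against 3 samples cannot give a p below 0.1, which the 6 separated genes reached.

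**Figure D2:**
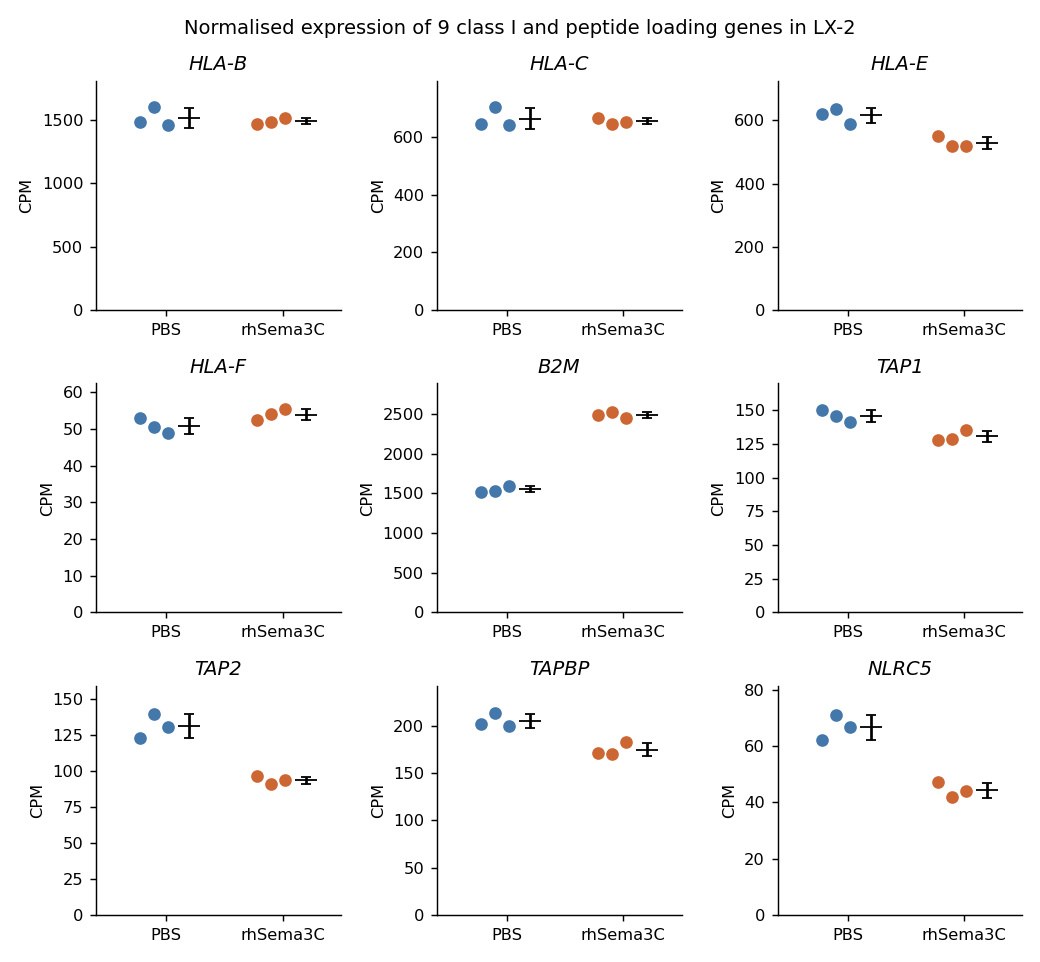
Normalised expression (CPM) of the 9 genes in the 3 PBS (blue) and 3 rhSema3C (orange) samples, with mean and SD in black and axes from 0. B2M rises from about 1549 to 2483 CPM, TAP2 and NLRC5 fall without overlap, and HLA-B and HLA-C overlap between the groups.

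Ratios of FPKM within a library do not depend on the scaling between libraries. For each unit of FPKM summed over HLA-B, HLA-C, HLA-E and HLA-F, B2M had 0.259, 0.243 and 0.277 with PBS and 0.431, 0.444 and 0.424 with rhSema3C. The light chain was thus higher relative to these 4 heavy chains in every rhSema3C sample, by 1.67-fold. Since the ratio sums over all 4, reads divided wrongly between HLA-B and HLA-C bear on it less than on either alone. The TAP1 to TAP2 ratio was 1.63, 1.39 and 1.43 with PBS and 1.76, 1.89 and 1.92 with rhSema3C, 1.26-fold higher. The HLA-F to HLA-E ratio rose from 0.0558 ± 0.00215 to 0.0690 ± 0.00408 (SD, n = 3 per group), also without overlap. By contrast the TAPBP to TAP1 ratio was 1.34 ± 0.0606 with PBS and 1.27 ± 0.0154 with rhSema3C, and the groups overlapped (two-sided exact permutation test, p = 0.2). Of 9 ratios computed, 8 were without overlap at an exact permutation p of 0.1, the smallest that 3 samples against 3 allow, and 0.112 when adjusted over the 9. Separation was common, since the groups did not overlap for 67.8% of all single genes tested. The share among ratios of other genes was not computed.

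**Figure D3:**
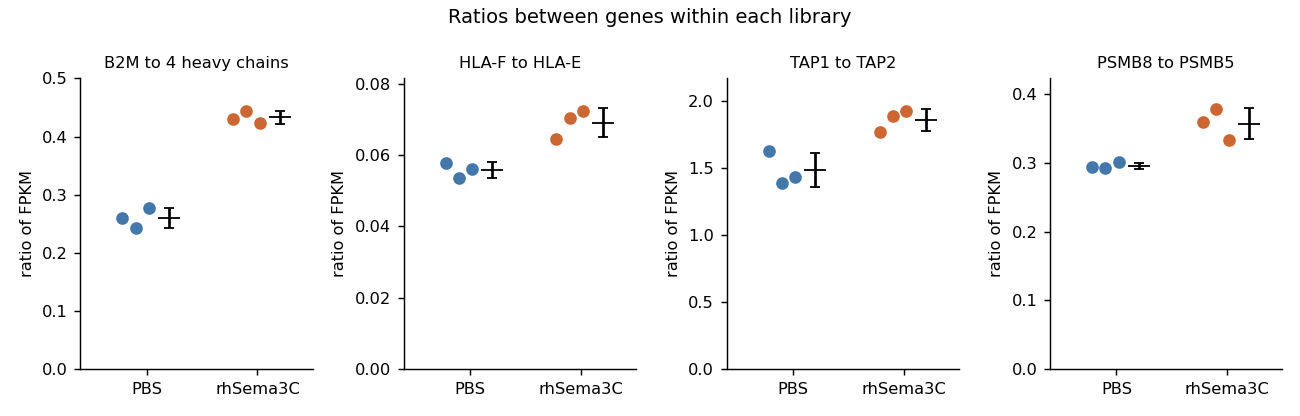
Ratio of FPKM values between genes within each library, for 3 PBS (blue) and 3 rhSema3C (orange) samples, with mean and SD in black and axes from 0. The B2M ratio shows the widest gap, from about 0.260 to 0.433, and the groups are separated in all 4 panels.

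The remaining pathway genes came from lists of the peptide supply, the promoter factors, the interferon pathway and related presentation molecules. Of the 12 trimming, loading and export genes, 7 were higher and 3 lower in edgeR's quasi-likelihood test, with a median log2 fold change of 0.22 beside 0.02 for all genes. Over all genes tested, 31.7% were higher and 30.6% lower, and these shares are the background for each list that follows. The lectin chaperones of the loading complex moved in opposite directions. CANX, which holds the new heavy chain, rose by 0.41 (SE 0.04), while CALR, which joins the complex with tapasin, fell by 0.63 on the log2 scale (SE 0.04). CALR was at 543.3 FPKM with PBS and 377.6 FPKM with rhSema3C. The peptide-trimming aminopeptidases ERAP1 and ERAP2 rose, by 0.36 and 0.35 on the log2 scale. PDIA3, the oxidoreductase partner of tapasin, was not called (-0.08, edgeR adjusted p = 0.106). It was above 0 but not called with library size alone, and was called higher with TPM (0.15, adjusted p = 0.00623 from limma). SEC61A1, the channel used for entry into the endoplasmic reticulum, fell by 0.57, and SEC23A, a coat protein of export vesicles, rose by 0.45. With each of the 4 scalings, CANX, ERAP1, ERAP2 and SEC23A were called higher and CALR and SEC61A1 lower.

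Of the 5 immunoproteasome and proteasome activator genes, 3 were lower and none higher in edgeR's quasi-likelihood test, beside 30.6% lower and 31.7% higher of all genes. The catalytic subunits PSMB8, PSMB9 and PSMB10 had log2 fold changes of -0.50, -0.14 and -0.34 (edgeR adjusted p = 2.94e-06, 0.0231 and 0.000525). The activator genes PSME1 and PSME2 were at -0.02 and -0.00. With TPM, 2 of the 5 were higher and 1 lower. PSMB8 was called lower under all 4 scalings, and PSMB10 under all but TPM (-0.11, adjusted p = 0.0505 from limma). The call of PSMB9 was lost with library size alone and when PBS replicate 1 or 2 or rhSema3C replicate 2 or 3 was left out, and its sign turned with TPM (0.08). The constitutive subunits that these replace, PSMB5, PSMB6 and PSMB7, fell by 0.77, 0.42 and 0.13, although PSMB7 was not called with library size alone and was called higher with TPM (0.10). Within libraries, the PSMB8 to PSMB5 ratio went from 0.296 ± 0.00418 to 0.357 ± 0.0230 and the PSMB9 to PSMB6 ratio from 0.180 ± 0.00777 to 0.218 ± 0.00324 (SD, n = 3 per group). The PSMB10 to PSMB7 ratio went the other way, from 0.210 ± 0.00393 to 0.181 ± 0.00218 (SD, n = 3 per group).

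Of 14 factors that act on class I promoters, 8 were higher and 4 lower, beside 31.7% higher and 30.6% lower of all genes. With TPM 10 were higher and none lower, a scaling with which 74.1% of all called genes were rises. CREB1, part of the promoter module, rose by 0.71 on the log2 scale, from 26.0 ± 0.835 to 42.5 ± 0.748 CPM (SD, n = 3 per group). IRF1, the interferon-induced activator that binds ISRE elements, rose by 0.41 (SE 0.05, edgeR adjusted p = 1.46e-05). Both rises were called under all 4 scalings. RFXANK, a subunit of the RFX complex that recruits NLRC5, fell by 0.32 (edgeR adjusted p = 0.000499, and not called with TPM). Of the NF-κB subunit genes, RELA fell by 0.28 (edgeR adjusted p = 0.000542, and not called with TPM), while NFKB1 rose by 0.14. The calls of IRF2, IRF9, RFX5, RFXAP, NFYB, NFYC and NFKB1 were each lost in at least 1 fit with a sample left out, as were those of SOCS3, MICA and HLA-DMA in the lists that follow.

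Of 9 genes for interferon receptors, their kinases and SOCS suppressors, 3 were higher and 3 lower (31.7% and 30.6% of all genes), and none was lower with library size alone or TPM. The 3 lower were the receptor chain IFNAR1 (-0.22), the kinase TYK2 (-0.21) and SOCS3 (-0.23), a suppressor of the pathway. IFNGR1, the ligand-binding chain of the interferon-γ receptor, had 29.2 ± 0.802 CPM with PBS and rose to 50.6 ± 3.73 CPM (SD, n = 3 per group). Its partner IFNGR2 was at -0.05 on the log2 scale, below the test. The kinase genes JAK1 and JAK2 rose by 0.34 and 0.83. Of 15 interferon-induced genes tested, 8 were lower and 3 higher (30.6% and 31.7% of all genes). Their median log2 fold change was -0.40, beside 0.02 over all genes, and -0.17 with TPM, beside 0.23. OAS1 fell by 1.09 and MX1 by 0.94, and IFIT2 rose by 0.78.

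Class I-like molecules and natural killer ligands had 2 genes higher and 4 lower of 9 tested (31.7% and 30.6% of all genes), with a median log2 fold change of -0.21. With TPM 3 were higher and 3 lower, and the median was 0.01. ULBP1, a stress-induced ligand of the receptor NKG2D, had 4.48 ± 0.718 CPM with PBS and rose to 14.3 ± 1.22 CPM (SD, n = 3 per group), with a log2 fold change of 1.67 (SE 0.14, edgeR adjusted p = 1.39e-06). ULBP2, the more abundant relative, fell by 0.35 and RAET1G fell by 0.73, also NKG2D ligands. FCGRT, which pairs with β2-microglobulin in the neonatal Fc receptor, fell by 0.47. HFE and MR1, which also bind β2-microglobulin, were not called (-0.21 and -0.18, above 0 with TPM), although HFE was called lower with median-of-ratios scaling. Of 10 class II genes, 5 passed the filter, of which 2 were lower (none with TPM), and HLA-DRA was at 0.338 FPKM with PBS. In the deposited KEGG annotation for antigen processing and presentation, 8 of 43 genes tested were higher and 17 lower, 58.1% called against 62.3% of all genes. In the deposited GO annotation for peptide antigen presentation by class I, 28 of 86 were higher and 30 lower, 67.4% called. Both groups were chosen after their values were seen.

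**Figure D4:**
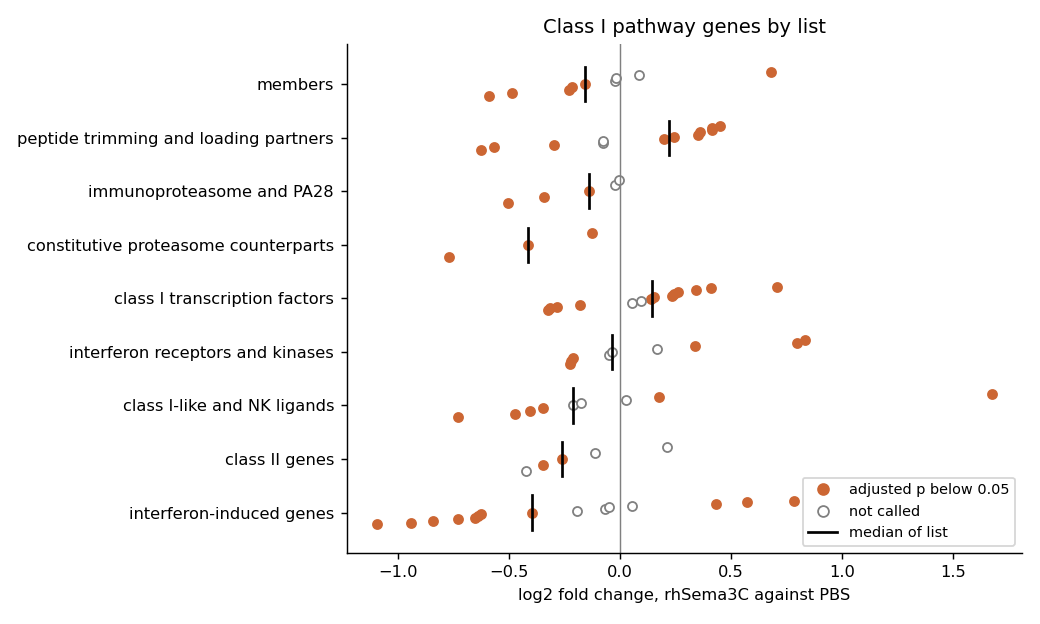
Log2 fold change (rhSema3C against PBS) of each tested gene in 9 lists, filled where the adjusted p was below 0.05 and open otherwise, with the list median as a black bar. ULBP1 lies farthest to the right (1.67), and all constitutive proteasome subunits lie to the left of 0.

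By the named rule, the genes whose log2 CPM over the 6 samples was most like the mean standardised profile of the 4 heavy chains were UCP2 (Pearson r = 0.968), CCDC9 (0.938), EIF2B3 (0.936), HLA-H (0.936) and PCYT2 (0.919). The likeness rested on samples within the groups, since the profile was highest in PBS replicate 2 (1.05) and lowest in PBS replicate 3 (-0.68). None of the 5 was called between the groups. HLA-H is a class I pseudogene that resembles the heavy chain genes in sequence, so it can share their reads.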

How the data were processed

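The RNA-seq of 6 LX-2 samples was analysed from the authors' table. The authors deposited whole-number counts for each gene together with FPKM, which they scaled to transcript length and library size. The methods name an Illumina NovaSeq instrument, Cufflinks and cuffmerge. The aligner, the counting tool, strand handling and the build are not given in the sources used here, and the coordinates lie on GRCh38. Groups and replicates came from the sample labels.

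The 14178 of 33900 genes whose FPKM averaged 0.5 or more were tested with edgeR's quasi-likelihood test on the deposited counts, with TMM factors, no covariates and Benjamini-Hochberg adjustment over all genes tested. Standard errors came from the F statistic. In simulated counts with 200 of 14178 genes changed, the test recovered 94% of changes of 2-fold and 50% of 1.5-fold (50 genes each). It made 10 false calls. In the measured data 62.3% of genes were called, so these rates cannot be taken to hold for this comparison. Total counts were 68267808 to 89245585. Intervals cover the spread between samples, and no source used here mentions molecular identifiers.

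The genes and lists were chosen with earlier results of these data known. Named genes are the 9 members, genes of the lists, and the 5 genes closest to the heavy chain profile among named genes averaging 5 FPKM or more. Motifs were chosen after the promoters had been read, and of several RefSeq starts the nearest to the gene model was used. HLA-G was not analysed here. Alternatives covered scaling, filters, pseudocounts, DESeq2, limma, the replicate number as a block, and leaving out single samples. The software was edgeR 4.0.16, DESeq2 1.42.0 and limma 3.58.1 in R 4.3.3, and matplotlib 3.10.9.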

Additional observations from a re-analysis of the deposited data

How the results depend on the processing

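The rise of B2M and the falls of TAP2 and NLRC5 kept their direction and call under every alternative in which they were tested. NLRC5 could not be tested with the filter at 5 FPKM. The number of the 9 genes called higher moved from 1 to 2 with library size alone, with the filter at 5 FPKM, and with limma on log2(FPKM + 1) or log2(FPKM + 0.1), and it was 4 with TPM. The number called lower moved from 5 to 2 with TPM and to 3 with the filter at 5 FPKM. It was 4 with library size alone and in both limma fits of FPKM. Over all genes, the filter at 5 FPKM left 5232 called in place of 8829 (2630 higher and 2602 lower), since fewer genes were tested, and TPM gave 6934 higher and 2428 lower in place of 4490 and 4339. At a fold change above 2, 785 genes were called, 2010 without a filter, 238 with the filter at 5 FPKM and 249 with limma on log2(FPKM + 1). Of the other pathway genes, 30 were lower, 15 with TPM and 17 with the filter at 5 FPKM.

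HLA-B turned to a log2 fold change of 0.087 with library size alone, 0.21 with TPM, 0.083 with the filter at 5 FPKM, 0.0809 with limma on log2(FPKM + 1) and 0.0811 on log2(FPKM + 0.1), and HLA-C to 0.0915, 0.21, 0.088, 0.0858 and 0.0861 in the same order. Of these, the TPM values were called and the others were not. Without PBS replicate 2 they turned to 0.0211 and 0.0278. In the 6 leave-one-out fits HLA-B ranged from -0.0493 to 0.0211 and HLA-C from -0.0410 to 0.0278. With TPM, HLA-E turned to 0.00884, TAP1 to 0.0679 and PSMB9 to 0.0843, none of them called. The cause of these changes beyond the scaling, filters and type of fit themselves was not tested.

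With the replicate number as a block, 1 of the 9 genes was called higher and 5 lower, as without it, and 8341 of all genes were called. PSMB9 was not called with the block (edgeR adjusted p = 0.0581). Deviations from the group means of same-numbered samples correlated at -0.00, 0.06 and -0.03. These values gave no sign that the numbers paired the samples, but 3 samples per group cannot exclude it. Groups of 3 samples limit the precision of every value.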
